A study of Mus musculus with 13 samples.

Results

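The genes described here code for the enzymes of glutathione turnover, the gamma-glutamyl transferases and the peptidases and cyclotransferases that work beside them. The list of 10 symbols (Ggt1, Ggt5, Ggt6, Ggt7, Gss, Ggct, Oplah, Lap3, Dpep1 and Anpep) was selected on the known function of the genes, with the fold changes and adjusted p-values of the authors' liver comparison in view. A gene was kept if the liver table had a row with its symbol. The table held 11779 genes, and 7 of the 10 members had a row. Ggt1, Ggt7 and Dpep1 had none, so their levels were not analysed here. A missing row does not show that a gene has no RNA in liver. Among the 4 transferase genes, Ggt5 and Ggt6 were thus the 2 with a value.

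Liver RNA came from Balb/c mice that had received GalNAc-conjugated antisense oligonucleotides (ASOs), which the GalNAc sugar directs to hepatocytes. There were 3 Liver LL35 ASO mice, given a mix of ASOs against the long non-coding RNA LL35 (Falcor, gene 9030622O22Rik). The 3 Liver Luc ASO mice were given an ASO against firefly luciferase, a gene that mice lack. The paper's text gives the LL35 mix as 5 ASOs, whereas its list of GalNAc-conjugated ASOs names fewer. Livers were collected at day 5. The dose was 150 mg/kg, which the labels give for each ASO and the methods of the study for the whole mix. The whole organ was sequenced, so RNA of hepatocytes and of other liver cells cannot be told apart, nor fewer cells of a type from less RNA per cell. The AML12 hepatocyte cultures of the same series were not analysed here.

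Each level below is the authors' mean normalized count for a gene, averaged over the compared liver libraries of both ASO groups. No value of a single liver was used, so no spread between mice can be given. A level therefore describes ASO-treated Balb/c liver as a whole and does not separate LL35 knockdown from control. The remaining numeric columns of the table hold the authors' own test of the 2 groups and were not used, so no change after LL35 knockdown is reported. The knockdown itself could not be checked with these levels either, because each is a mean over both ASO groups. The targeted gene also had no row under the symbol 9030622O22Rik, so its pooled level is not given. The paper reports its own check of the knockdown by RT-qPCR.

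Glutathione is the tripeptide of glutamate, cysteine and glycine, and the liver is its main producer. Glutamate-cysteine ligase joins the first pair of amino acids and glutathione synthetase adds glycine. After export, gamma-glutamyl transferases on the outer face of the plasma membrane cut the bond between glutamate and cysteine, and dipeptidases and aminopeptidases split the cysteinylglycine that is left. Inside the cell, gamma-glutamyl cyclotransferase releases 5-oxoproline from gamma-glutamyl amino acids, and 5-oxoprolinase opens it to glutamate, which closes the cycle. Gamma-glutamyl transferase activity is known to be far higher in kidney than in adult rodent liver.

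The listed members fell on both sides of the median listed gene. Per kilobase of exon, 4 members (Anpep, Lap3, Oplah and Gss) lay above the median of the listed genes, 51.5, and 3 (Ggt6, Ggt5 and Ggct) lay below it. Anpep was 78.2 times as abundant as Ggct on this scale, 43.6 times with the longest transcript as the length and 43.7 times with the median coding transcript. No listed member lay between 28.7 and 127.7 per kilobase, the values of Ggt6 and Gss. Dividing by length is meant to adjust for longer transcripts, which yield more reads for the same number of molecules. The adjustment is rough, because which transcripts the livers expressed is not known here.

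**Figure D1:**
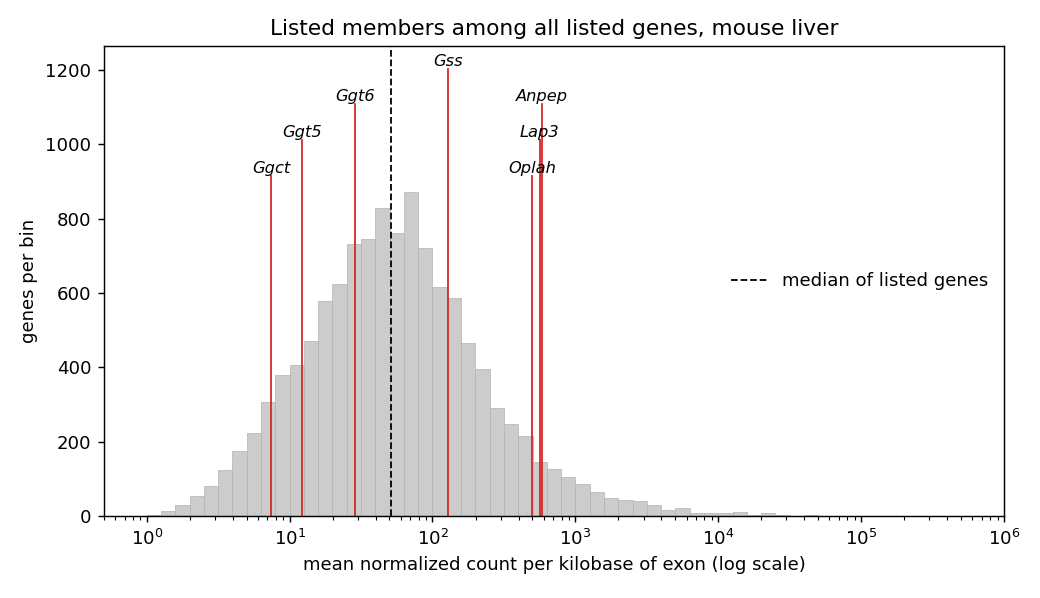
Histogram of the authors' mean normalized count per kilobase of exon (horizontal axis, log scale) over the 11754 listed genes with a gene model, with the number of genes per bin on the vertical axis. Red lines mark the 7 listed members and the dashed line the median, 51.5; Ggct, Ggt5 and Ggt6 stand to its left, and Gss, Oplah, Lap3 and Anpep to its right.

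The 2 gamma-glutamyl transferase genes with a value were in the lower part, while Ggt1 and Ggt7 had no row. Ggt5, an enzyme that also acts on leukotriene C4, had a mean normalized count of 72.3. With 5.92 kb of exon this was 12.2 per kilobase, at or above 14.8% of the listed genes. Ggt6, a less studied member of the family, had a mean normalized count of 52.2, the lowest of the members listed. Its gene model is short, 1.82 kb, so per kilobase it stood at 28.7, at or above 33.1% of the genes. Ggt6 was thus 2.35 times Ggt5 per kilobase of all exons and 1.75 times with the longest transcript. This order is not firm, because it turned with the length of the median coding transcript, where Ggt6 stood at 0.376 times Ggt5. For Ggt5 that length is a fraction of its exonic length, and with it Ggt5 was at or above 46.3% of the genes.

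Of the intracellular members, glutathione synthetase and 5-oxoprolinase were well above the median and the cyclotransferase far below it. Gss, which completes glutathione synthesis, had a mean normalized count of 756 and 127.7 per kilobase, at or above 74.9% of the genes. Oplah, the 5-oxoprolinase gene, had a mean normalized count of 2898, the highest of the listed members, and 496.5 per kilobase. Ggct, whose enzyme makes the 5-oxoproline that Oplah consumes, had a mean normalized count of 57.8 and 7.46 per kilobase, at or above 7.94% of the genes. The RNA of Oplah was thus 66.5 times that of Ggct per kilobase of all exons, 48.6 times with the longest transcript and 39.4 times with the median coding transcript.

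The peptidase genes were the most abundant listed members per kilobase. Anpep, or aminopeptidase N, a membrane enzyme that can cleave cysteinylglycine outside the cell, had a mean normalized count of 2415 and 583.9 per kilobase. Lap3, a cytosolic leucine aminopeptidase that also cleaves this dipeptide, had a mean normalized count of 1750 and 564.7 per kilobase. Together with Oplah they were the 3 highest members, at the percentiles 94.0, 93.9 and 93.1 of the listed genes. Lap3 was 1.14 times Oplah and Anpep 1.03 times Lap3. Their order changed with the length used, so none of the 3 can be placed first.

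**Figure D2:**
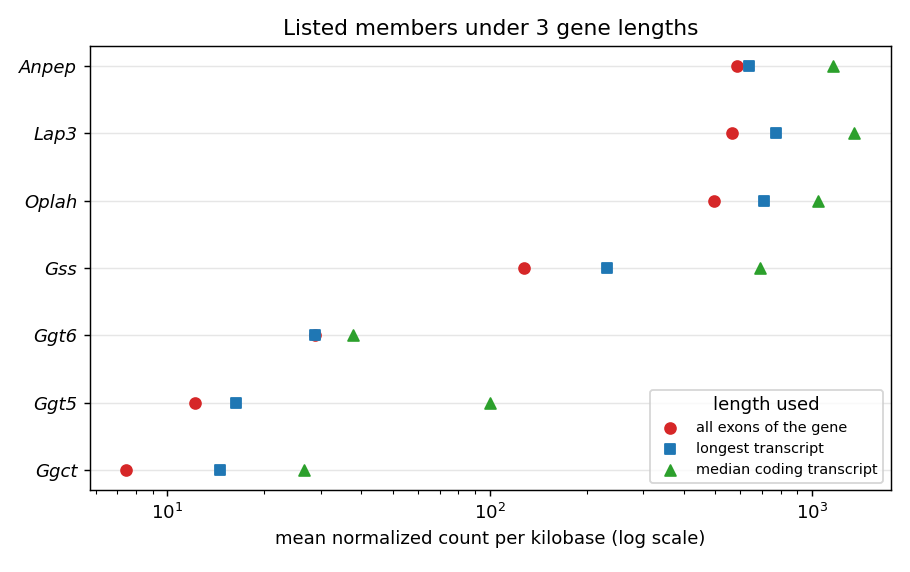
Authors' mean normalized count per kilobase (horizontal axis, log scale) for each listed member (vertical axis), divided by the length of all exons (red circles), of the longest transcript (blue squares) or of the median coding transcript (green triangles). Ggct, Ggt5 and Ggt6 stay to the left of Gss, Oplah, Lap3 and Anpep under each length, while the order inside these groups changes; Ggt5 moves most, from 12.2 to 100.1.

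Other genes were taken from a fixed list of 31, of which 26 were listed. Besides genes of glutathione metabolism, it holds 6 aminopeptidase and 10 transport genes, some of which also serve other substrates. On the per-kilobase scale 20 of the 26 lay above the median of the listed genes, 5 of them aminopeptidase genes, against 4 of the 7 listed members. The median levels were 147.0 for the fixed list and 127.7 for the members. The order of these medians turned with the length, to 203.4 and 231.9 with the longest transcript and to 268.9 and 690.7 with the median coding transcript. Both glutamate-cysteine ligase genes, which perform the rate-limiting step, were above glutathione synthetase under each of the lengths. Gclc, the catalytic subunit, had 797.1 per kilobase, 6.24 times Gss, and Gclm, the modifier subunit, had 409.7, 3.21 times Gss. With the longest transcript as the length these folds were 3.78 for Gclc and 1.99 for Gclm. With the median coding transcript they were 1.27 and 3.72, so that Gclm, with 2573 per kilobase, stood above Gclc with 877.

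Other genes whose enzymes release or cut gamma-glutamyl groups inside the cell had higher levels than Ggct under each length. Chac2, which degrades glutathione itself in the cytosol, had 230.5 per kilobase of all exons, 30.9 times Ggct, against 15.8 times with the longest transcript and 9.8 times with the median coding transcript. The cyclotransferase for gamma-glutamylamines, Ggact, had 96.7 per kilobase of all exons, which was 13.0 times the Ggct level, against 9.63 times with the longest transcript and 29.0 times with the median coding transcript. By the last of these lengths Ggact, with 769.9, stood above Chac2 with 259.9, so the order of the pair is not firm. Chac1, the stress-inducible paralogue of Chac2, had no row.

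For cysteinylglycine, the cytosolic dipeptidase Cndp2 had 93.3 per kilobase, while the membrane dipeptidase genes Dpep2 and Dpep3, like Dpep1, had no row. Acy1 and Acy3, aminoacylases that act on mercapturates, had 140.8 and 148.8, and the acetyltransferase gene Nat8 had no row. All 6 other aminopeptidase genes were listed, between 42.1 (Rnpep) and 199.4 (Erap1) per kilobase of all exons, each below Anpep and Lap3 on this scale. Erap1 had 257.1 per kilobase with the longest transcript, below Anpep with 635.9 and Lap3 with 771.7. With the median coding transcript Erap1 had 2829 per kilobase, above Lap3 with 1352 and Anpep with 1159, whereas the other 5 were below both. That median takes in short coding transcripts and can lie far below the longest one, 5.64 kb for Erap1, so this reversal is not firm. Enpep, a membrane aminopeptidase of the same family as Anpep, had 188.5 per kilobase of all exons, and Anpep was 3.10 times as abundant, or 5.46 times with the median coding transcript.

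The redox and transport genes set the ends of the range of the list. Gpx1, the cytosolic glutathione peroxidase, had 5183 per kilobase, the highest of the list under each length. The other redox genes had 373.8 (Gsr), 362.7 (Gpx4) and 145.3 (Glrx) per kilobase of all exons. Abcc2, the canalicular pump that exports glutathione and its conjugates into bile, had 1636, which was 2.80 times Anpep. Slc25a39, a mitochondrial glutathione carrier, had 1147, and its paralogue Slc25a40 had 8.21. Of the 10 transport genes 9 were listed and 4 lay above the median, or 3 with the median coding transcript. Per kilobase of all exons Abcc1 was the lowest with 4.03, but it had 8.95 with the longest transcript and 99.9 with the median coding transcript. The last value rests on a median that takes in short coding transcripts, while the longest transcript of Abcc1 has 6.79 kb. Slc1a4 was the lowest with the longest transcript and with the median coding transcript, at 7.86 and 7.91. The cystine carrier gene Slc7a11 had no row.

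**Figure D3:**
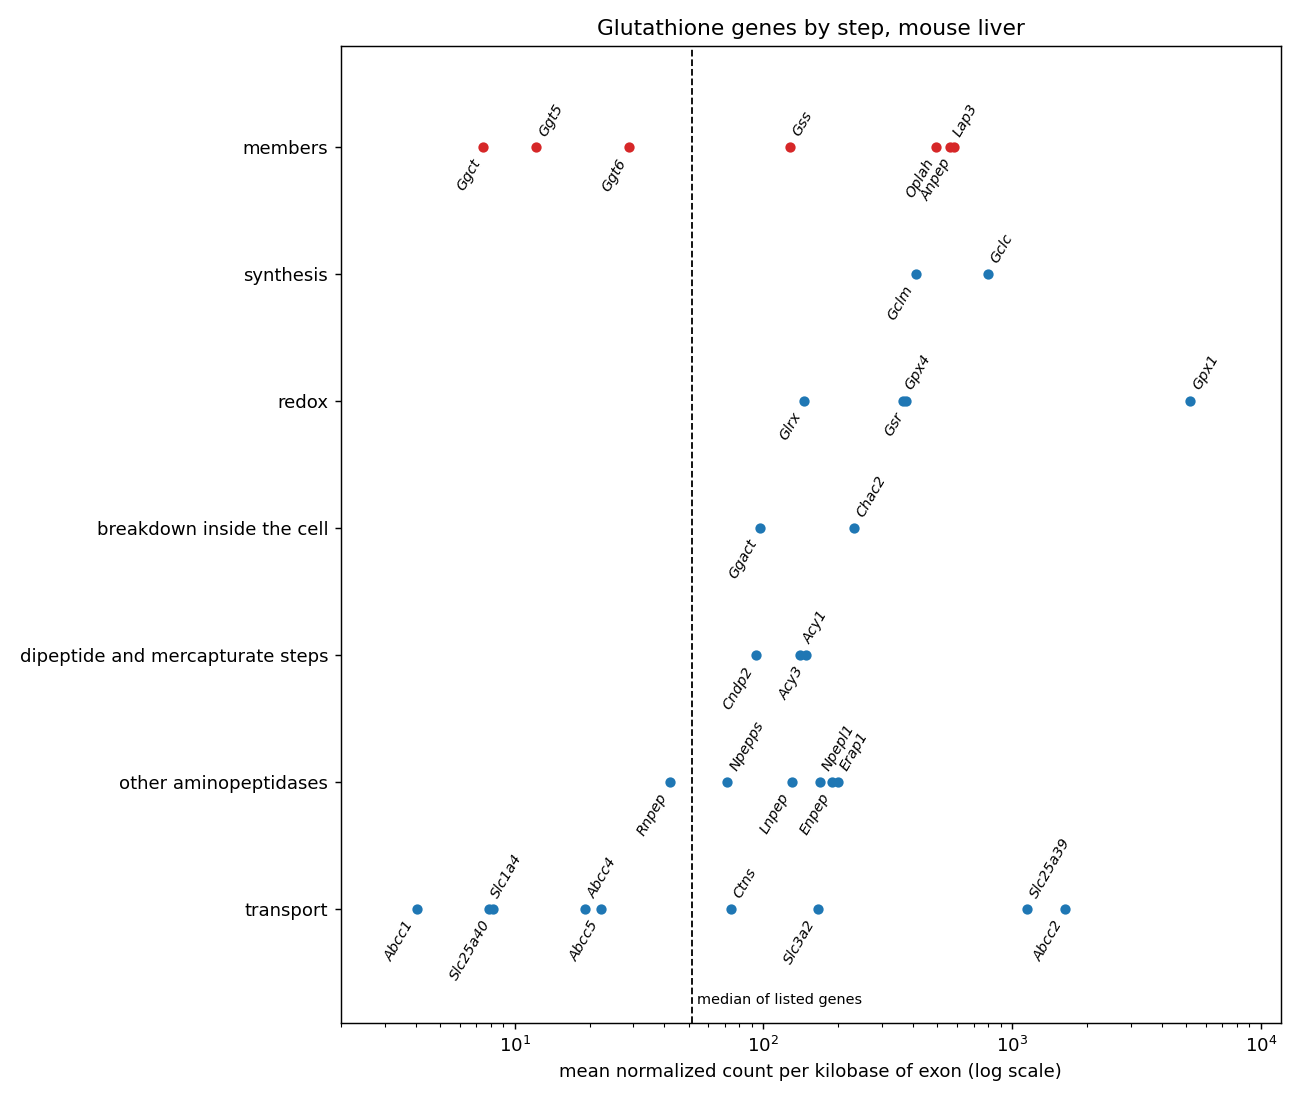
Authors' mean normalized count per kilobase of exon (horizontal axis, log scale) for the listed members (red) and the other listed glutathione genes (blue), one point per gene and one row per step of the pathway. The dashed line is the median of the listed genes, 51.5; both synthesis genes and all 4 redox genes lie to its right, whereas 5 of the 9 listed transport genes lie to its left.

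The labelled tissue was checked with marker genes. All 5 hepatocyte markers were listed, from 15344 per kilobase for Cps1 to 519843 for Alb, and Alb alone held 10.8% of the summed counts, against 0.0708% for the 7 members. Kupffer cell, sinusoidal endothelial and stellate cell markers were listed 5 of 5 each, with median levels of 274.8, 126.3 and 36.8. Of the 5 cholangiocyte markers, Sox9 was listed with 9.94 per kilobase and Krt19, Krt7, Epcam and Cftr had no row. The neutrophil markers S100a8 and S100a9 had 33.1 and 35.9, and of the T, NK and B cell markers Cd3e had 4.56 while Nkg7 and Cd79a had no row. Neither kidney tubule marker (Umod and Slc34a1) had a row, nor did Vil1, whereas Fabp2, the other intestine marker, had 691.7. Ggt5 and Ggt6, with 12.2 and 28.7 per kilobase of all exons, were below the Kupffer cell, endothelial and stellate medians and above Sox9 and Cd3e. The median coding transcript gave Ggt5 100.1 and Ggt6 37.6, above the stellate median of 36.8 and below the Kupffer cell and endothelial medians. Which cell types their RNA came from was not tested.

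Some members share exonic bases with genes on the opposite strand in GENCODE release M21. The paper counted reads with the gene counting mode of STAR. Whether strand was used in counting is not stated in the sources used here. Without it, reads from the shared bases may have been left out as ambiguous, which would lower the counts of these members. The size of such a loss was not tested. Oplah shares 385 bases with Exosc4 and 296 with Smpd5, or 6.6% and 5.07% of its exonic length. Gss shares 395 bases with Acss2, 322 with Gssos1 and 385 with Gssos2, between 5.44% and 6.68% of its length each. Ggt5, Ggt6, Ggct, Lap3 and Anpep share no exonic base with another gene there.

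Promoter sequence was compared as a feature that the choice of members did not use. RefSeq windows on GRCm38.p6 were found for 8 members, 5 of them listed (Gss, Lap3, Ggct, Anpep and Ggt6), and the 250 bases before each transcript start were read. The CpG ratio, observed over expected from the C and G content, had a median of 0.711 over the windows of listed genes. It was 0.992 for Lap3, 0.938 for Ggct, 0.799 for Anpep, 0.561 for Gss and 0.300 for Ggt6. Lap3 and Ggct thus had similar ratios while their levels stood on opposite sides of the median, and over 5 genes no relation to the level can be tested. The windows of Lap3 and Ggt6 are shown because they have the highest and the lowest ratio. Capitals mark every CG in Lap3 (chr5:45493124-45493373, plus strand) and every TATAAA, on either strand, in Ggt6 (chr11:72435276-72435525, plus strand).
Lap3: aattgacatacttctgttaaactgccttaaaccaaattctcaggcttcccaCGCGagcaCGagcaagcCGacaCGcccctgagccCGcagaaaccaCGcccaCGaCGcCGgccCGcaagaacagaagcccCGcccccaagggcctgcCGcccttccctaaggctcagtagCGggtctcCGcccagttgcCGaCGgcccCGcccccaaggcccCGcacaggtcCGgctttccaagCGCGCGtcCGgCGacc
Ggt6: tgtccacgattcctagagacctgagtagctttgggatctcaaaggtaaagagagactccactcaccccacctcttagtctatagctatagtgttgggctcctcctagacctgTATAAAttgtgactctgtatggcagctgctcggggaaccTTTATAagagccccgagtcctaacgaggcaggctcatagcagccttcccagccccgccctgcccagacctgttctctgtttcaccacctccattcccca

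Lap3 holds 25 CG pairs in this window and Ggt6 holds 5. Ggt6 holds TATAAA at 2 places, beginning 138 and 99 bases before the start, the latter on the opposite strand, and the windows of the other 4 listed members hold none. Over all 32851 promoter windows, 12.4% hold this hexamer on either strand. TGACNNNGC, the core of the antioxidant response element to which NRF2 binds, was found in Ggct alone among these 5, beginning 174 bases before the start, and in 10.2% of all windows. Both shares cover the windows of genes without a row as well, and their median CpG ratio was 0.374, against 0.711 for the windows of listed genes. The shares among listed genes alone were not computed. A match of letters is a description and does not show a site in use.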

How the data were processed

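RNA-seq libraries of liver from 3 Liver Luc ASO and 3 Liver LL35 ASO mice were made by the authors with a directional kit after rRNA depletion. Per the labels and the methods, the authors aligned reads with STAR 2.5.3a, counted them on Ensembl genes (release and genome build are not given in the sources used here) and used DESeq2 with RLE normalization. The deposited table gives for each gene a signal, the mean of normalized counts over the compared libraries. Another 5 columns (fold change on the log2 scale with its error, test statistic, p-value before and after adjustment) are the authors' own comparison and were not used. The depth of each library is unknown, and so is the precision it gives. The lowest mean normalized count listed was 15.6 and the median 235. By which rule genes were left out is not stated in the sources used here, so each percentile is relative to the listed genes.

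Ensembl identifiers were matched to GENCODE release M21 for 11754 of 11779 genes, of which 11525 had the same symbol. The mean normalized count was divided by the union of all exons. The longest transcript and the median protein-coding transcript served as alternatives. The median was taken over every transcript annotated as protein-coding, short ones included, so it can fall far below the longest transcript and raise the level. Percentiles are the share of listed genes at or below a value. Alternatives were a minimum mean normalized count of 50 and no division by length. No test was run. The named genes are the members, the glutathione list, the cell type markers and the targeted gene. The members and lists were chosen with earlier results of these data known. Percentiles and motif searches were tested on simulated data. Python 3.11.15, numpy 2.4.6, pandas 2.3.3 and matplotlib 3.10.9 were used.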

Additional observations from a re-analysis of the deposited data

How the results depend on the processing

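The number of listed members above the median of the listed genes was 4 per kilobase of all exons, and also 4 with the longest transcript as the length, without division by length, and among the 9923 genes whose mean normalized count reached 50. The ratio of the highest to the lowest listed member fell from 78.2 to 52.9 with the longest transcript and to 51.0 with the median coding transcript. Over these lengths and without division by length, Oplah, Lap3 and Anpep stayed between the percentiles 92.0 and 95.7, Gss between 74.9 and 88.1, Ggt6 between 16.6 and 33.1, Ggct between 7.94 and 18.2, and Ggt5 between 14.8 and 46.3. The median coding transcript of Ggt5 is a fraction of its exonic length, which moved its level most. Among the genes that reached 50, Ggct stood at the percentile 1.19, Ggt5 at 4.64 and Ggt6 at 21.9. Their mean normalized counts, 57.8, 72.3 and 52.2, are not far above that cut. The cut takes away genes with lower counts, so these low percentiles partly follow from the filter.

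No paired analysis was possible because the values used are the authors' mean over the compared livers, and none of the livers was left out in turn for the same reason. Protein identity between the Ggt members was not computed, since no protein table was used here.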
